A study of Mus musculus with 2 samples.

Results

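The surface marker genes described here are those of the antigens by which granulocyte-monocyte progenitors (GMPs) and the neighbouring progenitors of the BM are told apart in flow cytometry. They were chosen by name, as 10 of the 24421 gene symbols in the deposited values: *Kit*, *Cd34*, *Fcgr3*, *Fcgr2b*, *Ly6a*, *Slamf1*, *Il7r*, *Flt3*, *Cd48* and *Cd27*. RNA was sequenced in bulk from GMPs that had been purified by flow cytometry from the BM of female F1 mice with a mixed H-2b/d background. The groups were 1 library from non-tumor-bearing mice (NTB-GMP) and 1 library from mice that carried tumors in the mammary gland grown from the breast cancer cell line 4T1 (4T1-GMP). The labels give neither the age of the mice, nor the time after implantation, nor how many mice were pooled in a library. The study's methods state an age range for all its experiments, without naming these libraries. They also describe implantation of 4T1 cells into BALB/c females, which differs from the F1 background in the labels. With 1 library per group there was no replicate error and no test of the conditions. Intervals are 95% intervals on the reads of these libraries and cover counting error only. They treat the reads as independent. PCR copies were not told apart by molecular identifiers, so the intervals may be too narrow even for counting error. The library sizes by which the values had been divided were 10180365.2 for the NTB library and 30016262.8 for the 4T1 library, 2.95 times as large. The reads recovered from the values came to 9838062 and 27521379, so the tumor-bearing library was the deeper one.

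GMPs are committed BM cells that give rise to granulocytes and monocytes. They are conventionally sorted as lineage-negative cells that carry the stem cell factor receptor c-Kit and high CD16/32, lack Sca-1 and CD127, and mostly carry CD34. Stem cells and multipotent progenitors keep Sca-1, with CD150, CD48 and Flt3 separating them further, and CD127 with Flt3 marks lymphoid progenitors. For the sort of GMPs in its culture experiments, the study's methods name CD150, CD16/32, Sca-1 and c-Kit on BM depleted of cells positive for Ter-119, Gr-1, B220 or CD3; whether the sequenced cells were gated in the same way is not given in the sources used here. A gate acts on surface protein, so the RNA levels below are those within cells that had already been selected on some of these antigens.

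The CD16/32 antibody of GMP gates binds the products of both *Fcgr3* (CD16) and *Fcgr2b* (CD32), and the sequences of these genes show how alike they are. GENCODE M21 places *Fcgr2b* at chr1:170958617-170976547 and *Fcgr3* at chr1:171051174-171064935 of GRCm38, both on the minus strand with 74626 bases between them. Over 785 aligned bases of the longest coding sequences, 86.5% were identical. The longest run without a difference was 129 bases, from base 263 to 391 of the *Fcgr3* coding sequence and from base 278 to 406 of *Fcgr2b*. It is printed here in lower case because a read that falls within it cannot be assigned to either gene.
Fcgr3 and Fcgr2b, shared coding run: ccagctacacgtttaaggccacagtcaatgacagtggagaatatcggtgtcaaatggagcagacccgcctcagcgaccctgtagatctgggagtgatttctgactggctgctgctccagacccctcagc
Of all 50-base windows of the longest *Fcgr3* transcript, 12.8% also occurred in *Fcgr2b*, and 12.5% of those of *Fcgr2b* occurred in other genes, *Fcgr3* among them. With 100-base windows the shares were 3.53% and 6.79%. The shares of *Fcgr2b* include windows shared with unrelated genes, *Cplx2* and *Rab3c* among them. They were taken over its longest transcript, not over the 1546 bases behind its RPKM. The length of the reads and the handling of reads with several positions are not given in the sources used here. The split between these genes is therefore uncertain to an extent that these shares do not measure.

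The promoters are shown for the genes on which the comparison turned, which are the neighbours *Fcgr3* and *Fcgr2b*, whose values moved in opposite directions, and *Cd34* and *Flt3*, the members with the largest differences. Each is the 250 bases before a RefSeq start site (GRCm38.p6), 5′ to 3′ on the gene's strand. Of the 2 listed starts of *Fcgr3* the upstream one is printed. The windows of *Fcgr3* and *Fcgr2b* lie inside the GENCODE spans given above, whose 5′ ends are at 171064935 and 170976547. They are thus upstream of the RefSeq starts but downstream of those GENCODE ends. Capitals mark matches on either strand. For ETS factors, PU.1 included, the letters searched were GGAAGT. For RUNX factors they were TGTGGT. For factors of the GATA family they were AGATAA. For C/EBP factors they were TTGCNNAA. None of these overlaps another in the printed windows.
Fcgr3, chr1:171059404-171059653, minus strand: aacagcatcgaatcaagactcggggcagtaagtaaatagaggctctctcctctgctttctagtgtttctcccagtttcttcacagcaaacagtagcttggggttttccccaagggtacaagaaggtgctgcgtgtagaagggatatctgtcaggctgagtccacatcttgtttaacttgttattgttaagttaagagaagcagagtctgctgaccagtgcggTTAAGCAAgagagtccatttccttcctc
Fcgr2b, chr1:170976072-170976321, minus strand: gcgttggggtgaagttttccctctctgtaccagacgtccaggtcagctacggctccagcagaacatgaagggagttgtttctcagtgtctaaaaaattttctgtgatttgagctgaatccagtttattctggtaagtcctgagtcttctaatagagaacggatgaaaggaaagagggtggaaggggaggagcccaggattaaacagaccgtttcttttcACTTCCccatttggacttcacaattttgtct
Cd34, chr1:194938571-194938820, plus strand: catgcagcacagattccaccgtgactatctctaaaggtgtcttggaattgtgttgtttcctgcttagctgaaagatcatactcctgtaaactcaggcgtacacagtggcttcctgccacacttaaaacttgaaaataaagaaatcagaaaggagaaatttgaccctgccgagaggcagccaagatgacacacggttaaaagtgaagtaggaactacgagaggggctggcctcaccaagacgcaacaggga
Flt3, chr5:147400490-147400739, minus strand: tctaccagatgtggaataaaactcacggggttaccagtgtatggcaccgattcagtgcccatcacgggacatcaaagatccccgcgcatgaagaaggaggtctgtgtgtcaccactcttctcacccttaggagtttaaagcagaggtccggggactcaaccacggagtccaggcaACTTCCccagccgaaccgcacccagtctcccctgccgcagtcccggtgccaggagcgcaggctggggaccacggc
The C/EBP match of *Fcgr3* began 28 bases before its RefSeq start. The ETS match of *Fcgr2b* began 31 bases before its own and that of *Flt3* 75 bases before its own. The *Cd34* window held none of these letters. Of 32851 promoter windows of this length, 19.7% held the ETS letters, 14% the RUNX letters, 9.99% the GATA letters and 9.56% the C/EBP letters.

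Among the 10 members, *Kit*, *Cd34*, *Fcgr3* and *Fcgr2b*, the genes of antigens that GMPs carry, were abundant in both libraries, and *Ly6a*, *Slamf1* and *Il7r*, the genes of antigens that GMPs lack, were near 0. Genes of other antigens that the study's flow panels exclude from GMPs were well above 0 and are given below, with *Ly6c2* above *Kit* in NTB controls. Values are RPKM, the reads of a gene scaled to its length and to the library size, so that they can be compared between genes. In NTB-GMP, *Cd34* had 154 RPKM, *Kit* 78.5 RPKM, *Cd48* 64.3 RPKM, *Fcgr3* 53.1 RPKM, *Fcgr2b* 47.3 RPKM, *Cd27* 38.1 RPKM and *Flt3* 12.6 RPKM. Only *Fcgr3* and *Fcgr2b* were neighbours in this order whose counting intervals overlapped. In 4T1-GMP, the order was *Fcgr2b* with 64.6 RPKM, *Cd34* with 59.4 RPKM, *Kit* with 49.1 RPKM, *Cd48* with 46.3 RPKM, *Fcgr3* with 28.6 RPKM, *Cd27* with 21.2 RPKM and *Flt3* with 2.34 RPKM, and the intervals of *Kit* and *Cd48* overlapped. *Fcgr2b* thus moved from the fifth to the first place, while *Cd27* and *Flt3* stayed at the end.

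**Figure D1:**
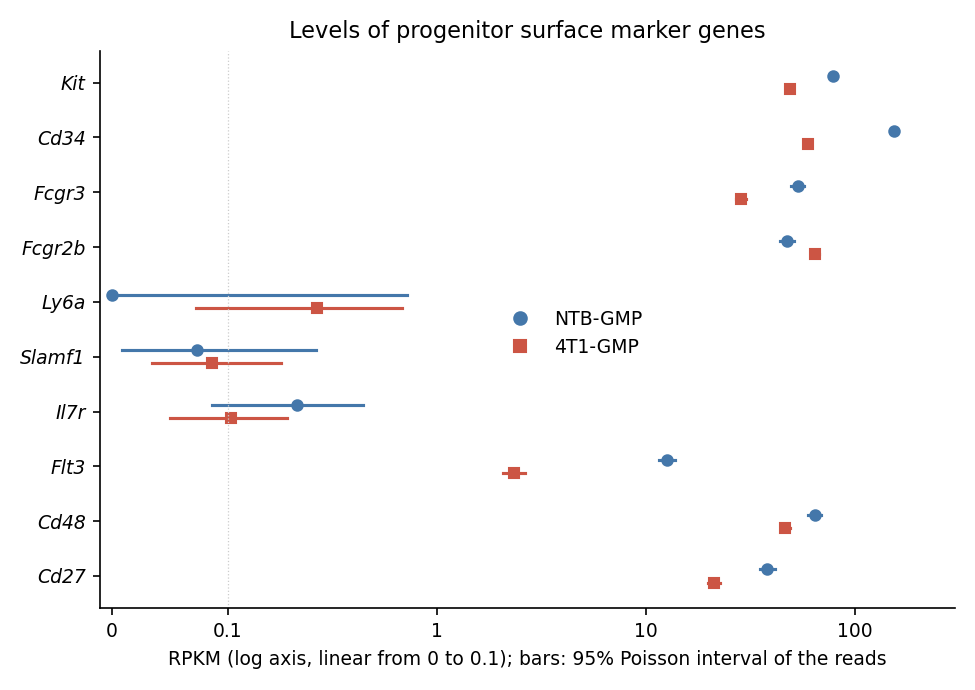
RPKM of the 10 genes in NTB-GMP (circles) and 4T1-GMP (squares) on an axis that is logarithmic above 0.1 and linear from 0 to 0.1, with bars for the 95% Poisson interval of the reads. *Fcgr2b* is the one gene above 1 RPKM whose 4T1-GMP value (64.6) lies right of its NTB-GMP value (47.3), and *Ly6a*, *Slamf1* and *Il7r* lie below 0.3 in both libraries.

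To set the libraries against each other, the RPKM of 4T1-bearing mice was divided by that of controls on the log2(RPKM + 0.1) scale for the 10378 genes whose RPKM averaged 1 or more. Of the 10 members, 7 passed this minimum, 6 of them lower and 1 higher in 4T1-bearing mice. Among all 10378 genes, 45.3% were lower and the median log2 ratio was 0.05, against a median of -0.84 over the 7 members. At least 2-fold lower were 2 members, *Flt3* and *Cd34*, where 4.92% of all genes were, and 0 members were at least 2-fold higher, where 3.25% of all genes were. In either direction this was 2 of 7 members and 8.17% of all genes. These shares describe genes within a pair of libraries and are not p-values. In bulk RNA, fewer cells that express a gene and less RNA per cell cannot be told apart, and here the tumor also cannot be told apart from any other difference between the libraries.

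**Figure D2:**
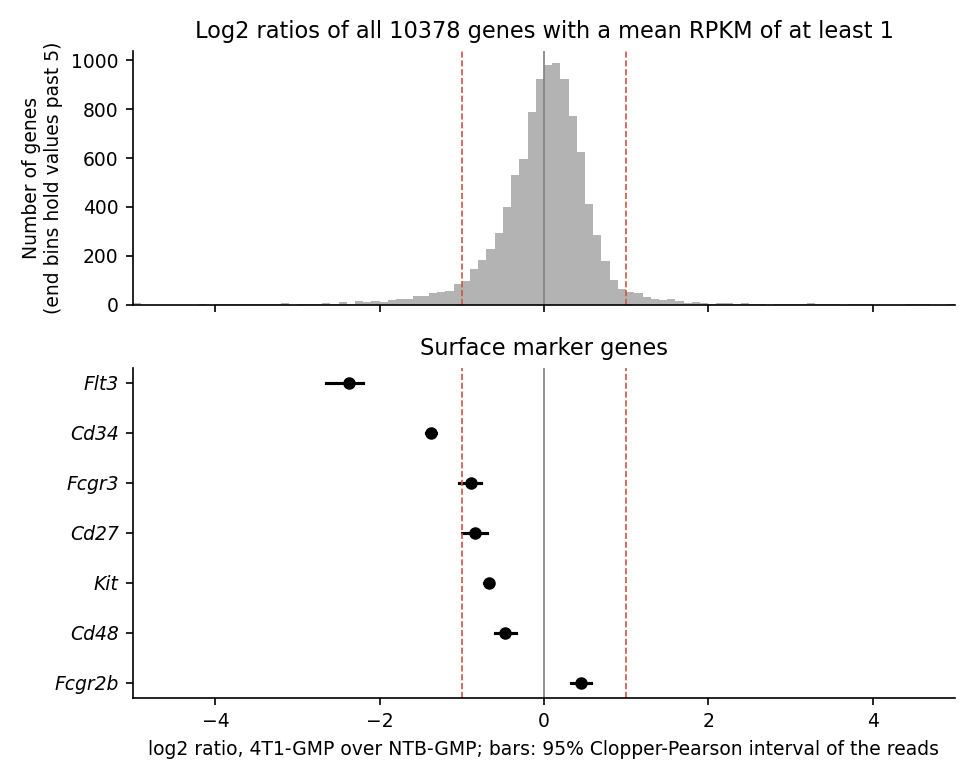
Top, log2 ratios of 4T1-GMP over NTB-GMP for 10378 genes, with end bins that hold all values past 5; bottom, the 7 members above the minimum, with bars for the 95% Clopper-Pearson interval of the reads and dashed lines at 2-fold. *Flt3* (-2.38) and *Cd34* (-1.37) lie left of the lower dashed line and *Fcgr2b* (0.45) is the one member right of 0.

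*Kit* encodes c-Kit, the receptor tyrosine kinase for stem cell factor, which sustains progenitor survival and growth and defines the GMP gate. It had 78.5 RPKM in NTB controls (4139 reads) and 49.1 RPKM in 4T1-bearing mice (7642 reads). The value was 1.6-fold lower in 4T1-bearing mice, with a log2 ratio of -0.67 (interval -0.73 to -0.62). Only 9.51% of the tested genes had a lower ratio. *Kit* lies at chr5:75574916-75656722, and 0% of its 50-base windows occurred in another gene.

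*Cd34* encodes a sialomucin of early hematopoietic cells that is gradually lost as progenitors mature. It was the most abundant member in NTB controls, with 154 RPKM (4104 reads), and had 59.4 RPKM in 4T1-bearing mice (4670 reads). It was thus 2.59-fold lower in the tumor-bearing library, with a log2 ratio of -1.37 (interval -1.43 to -1.31), and 2.74% of the tested genes had a lower ratio. The quotient of *Cd34* over *Kit* was 1.96 in NTB controls and 1.21 in 4T1-bearing mice. *Cd34* lies at chr1:194938819-194961279, and overlaps the opposite-strand gene *Gm16897*, which had 0.513 RPKM in NTB controls and 0.0267 RPKM in 4T1-bearing mice. The antisense gene was far below *Cd34* in both libraries, and whether the counting used strand is not given in the sources used here.

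The CD16/32 pair moved apart. *Fcgr3*, the low-affinity activating IgG receptor, had 53.1 RPKM (732 reads) in NTB controls and 28.6 RPKM (1160 reads) in 4T1-bearing mice, which is 1.86-fold lower with a log2 ratio of -0.89 (interval -1.03 to -0.76). *Fcgr2b*, the inhibitory IgG receptor, had 47.3 RPKM (744 reads) in NTB controls and 64.6 RPKM (2999 reads) in 4T1-bearing mice, which is 1.37-fold higher with a log2 ratio of 0.45 (interval 0.33 to 0.57). Their intervals lay on opposite sides of 0. The quotient of *Fcgr2b* over *Fcgr3* was 0.89 in NTB controls and 2.26 in 4T1-bearing mice, a log2 change of 1.35 that no scaling of a whole library can alter. *Fcgr2b* made up 47.1% of the summed RPKM of the pair in NTB controls and 69.3% in 4T1-bearing mice. The sum itself came to 100.4 RPKM in NTB controls and to 93.2 RPKM in 4T1-bearing mice, a log2 ratio of -0.11. The makeup of the sum thus differed more than its size.

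**Figure D3:**
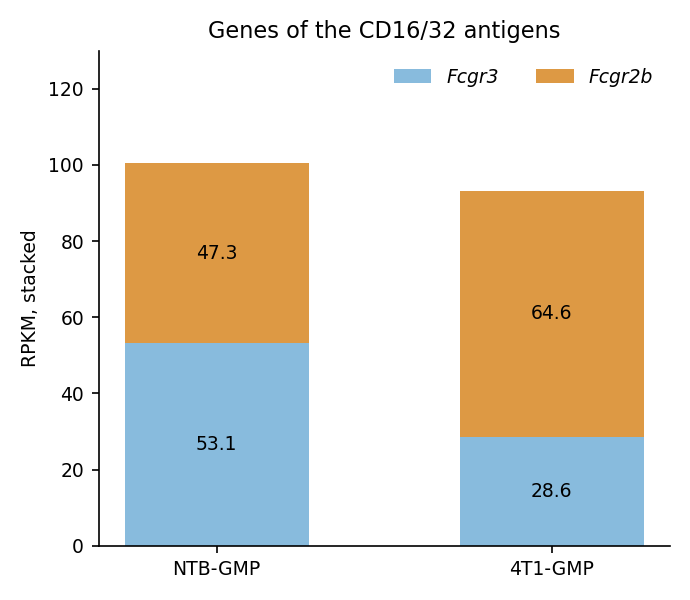
Stacked RPKM of *Fcgr3* (lower part of each bar) and *Fcgr2b* (upper part) in NTB-GMP and 4T1-GMP, 1 library each. The bars reach 100.4 and 93.2, and the *Fcgr2b* part takes up 47.1% and 69.3% of them.

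Among the other Fc receptor genes the same library held more *Fcgr4*, an activating receptor of neutrophils and monocytes, with 2.04 RPKM in NTB controls and 5.14 RPKM in 4T1-bearing mice (log2 ratio 1.29). *Fcer1g*, the signalling chain shared by *Fcgr3*, *Fcgr4* and the IgE receptor, had 22.2 RPKM and 13.5 RPKM (-0.72). *Ms4a2*, the beta chain of the IgE receptor of mast cells and basophils, had 47.9 RPKM and 13.1 RPKM (-1.86), and its alpha chain gene *Fcer1a* 18.6 RPKM and 14.2 RPKM (-0.39). Of the 14 Fc receptor family genes listed, *Fcgr3* and *Fcgr2b* included, 6 reached the minimum, with 1 at least 2-fold higher and 1 at least 2-fold lower and a median log2 ratio of -0.55. *Fcgr1*, the high-affinity IgG receptor of monocytes and macrophages, was listed at 0 in NTB controls and had 0.0515 RPKM (4 reads) in 4T1-bearing mice.

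The members for Sca-1, CD150 and CD127 were scarcely detected. *Ly6a* encodes Sca-1, the antigen that separates stem and multipotent cells from committed progenitors. It was at 0 in NTB controls, where 3 reads would have given 0.588 RPKM for the gene length used here, and had 0.266 RPKM in 4T1-bearing mice, from as few as 4 reads. The value in 4T1-bearing mice was therefore under what the shallower NTB-GMP library could have shown, and no fold was taken. *Slamf1* encodes CD150, a marker of stem cells and of megakaryocyte and erythroid precursors. It had 0.0731 RPKM in NTB controls (2 reads) and 0.0868 RPKM in 4T1-bearing mice (7 reads), and its log2 ratio without a pseudocount was 0.25 (interval -2.15 to 3.55). *Il7r* encodes CD127, the interleukin 7 receptor of lymphoid progenitors, and had 0.214 RPKM in NTB controls (7 reads) and 0.104 RPKM in 4T1-bearing mice (10 reads), a log2 ratio without a pseudocount of -1.05 (interval -2.59 to 0.58). Differences of these genes were not detectable at this depth. All 3 stood under the minimum mean of 1 RPKM. *Ly6a* (chr15:74994877-74998031) also shared 10% of its 50-base windows with other genes, *Ly6c1* and *Ly6i* among them.

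The genes that grade GMPs against their neighbours were lower in 4T1-bearing mice, and *Flt3* differed most of all members. *Flt3*, at chr5:147330741-147400489, encodes the receptor for Flt3 ligand, which marks multipotent, lymphoid and dendritic progenitors and declines on the way to granulocytes. It had 12.6 RPKM in NTB controls from 469 reads and 2.34 RPKM in 4T1-bearing mice from 257 reads, so the deeper library held fewer reads of it. The value was 5.2-fold lower, with a log2 ratio of -2.38 (interval -2.65 to -2.21), and 0.771% of the tested genes had a lower ratio. The related kinase *Kit* was 6.23 times as abundant as *Flt3* in NTB controls and 21 times as abundant in 4T1-bearing mice.

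*Cd27*, a TNF receptor family member that is used to grade multipotent and early myeloid cells, had 38.1 RPKM in NTB controls (611 reads) and 21.2 RPKM in 4T1-bearing mice (1002 reads). It was 1.79-fold lower, with a log2 ratio of -0.84 (interval -0.99 to -0.70). *Cd48*, the SLAM family ligand that is absent from most stem cells and present on GMPs, had 64.3 RPKM (747 reads) and 46.3 RPKM (1588 reads). Its log2 ratio of -0.47 (interval -0.60 to -0.34) was the smallest in size among the 6 lower members. *Cd27* (chr6:125232622-125237010) overlaps the microRNA gene *Mir8113*, which was listed at 0 in both libraries. *Cd48* at chr1:171682009-171705258 and *Slamf1* at chr1:171767127-171801184 lie 61868 bases apart on the same strand, yet *Cd48* was among the abundant genes of both libraries and *Slamf1* near 0 in both.

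The receptors were also set beside genes of their families and ligands. Of the 18 genes for class III receptor tyrosine kinases and the proteins that signal from them, 17 reached the minimum, with 4 higher and 13 lower in 4T1-bearing mice and a median log2 ratio of -0.30. At least 2-fold lower were 2 of them, *Flt3* and *Pdgfrb* (5.52 RPKM and 1.86 RPKM, log2 ratio -1.52), and 0 were at least 2-fold higher. *Csf1r*, the M-CSF receptor CD115, was at 12.1 RPKM and 7.89 RPKM (-0.62), and *Cblb*, a ubiquitin ligase that restrains receptor signaling, at 7.13 RPKM and 4.18 RPKM (-0.76). *Lyn*, a Src family kinase, was the highest of the list by ratio (0.44), followed by the adaptor *Shc1* (0.30) and the phosphatase *Ptpn6* (0.26). *Kit* had the highest mean level in that list. Of the receptors' ligands, *Cd70*, the ligand of CD27, and *Cd2*, a ligand of CD48, were listed at 0 in both libraries. *Kitl*, which encodes stem cell factor, had 0.018 RPKM and 0.00611 RPKM from 1 read each, and *Il7* 0.159 RPKM and 0.0404 RPKM from 4 and 3 reads. *Flt3l*, the ligand of Flt3, had 2.47 RPKM in NTB controls and 0.899 RPKM in 4T1-bearing mice (27 and 29 reads, log2 ratio -1.36). *Flt3l* reached the minimum only through the NTB library, so that its being lower is partly fixed by the filter. *Cd244*, the receptor that binds CD48, had 2.22 RPKM and 1.85 RPKM (-0.25).

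In the SLAM family and its adaptors, 5 of 12 genes reached the minimum and their median log2 ratio was -0.24, with none past 2-fold. Besides *Cd48* these were *Cd84* (-0.16), *Ly9* (-0.24), *Cd244* (-0.25) and the adaptor *Sh2d1b1* (0.45). Of the 8 IL-7 receptor partners, *Il7r* included, 7 reached the minimum, with 2 higher and 5 lower, a median of -0.27 and 0 past 2-fold. The shared receptor chain *Il2rg* had 15.7 RPKM and 12.9 RPKM (-0.27) while *Il7r* itself was near 0, and the ligand gene *Tslp* (0.85) and the kinase *Jak3* (0.33) were the higher ones. *Crlf2* (-0.61), *Stat5b* (-0.45) and *Stat5a* (-0.30) were lowest by ratio, and *Jak1* had the highest mean level (-0.14). Among 16 TNF receptor family genes and CD27 partners, 8 reached the minimum and their median was 0.13, which turned to -0.036 with reads of the ribosomal RNA precursor *Rn45s* left out of the library sizes. *Cd27* (-0.84) was the lowest of them by ratio, ahead of *Tnfrsf13b* (-0.44), and the others, led by *Tnfrsf1a* (0.38), *Ltbr* (0.29) and *Siva1* (0.22), were above 0. *Siva1* also had the highest mean level of that list.

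The genes listed with *Cd34* as sialomucins or podocalyxin relatives went several ways. The podocalyxin genes were near 0, *Podxl* with 0 and 0.00625 RPKM and *Podxl2* with 0.0982 and 0 RPKM. *Spn*, which encodes CD43, had 125 RPKM and 118 RPKM (-0.08), *Selplg*, the selectin ligand PSGL-1, 35 RPKM and 31.8 RPKM (-0.14), and *Cd164* 69.8 RPKM and 76.6 RPKM (0.13). *Prom1*, which is in this list but is not a sialomucin, encodes the early progenitor antigen CD133. It had 13 RPKM in NTB controls and 70.4 RPKM in 4T1-bearing mice (log2 ratio 2.42). This is the opposite direction to *Cd34*. Of the 7 genes of this list, 5 reached the minimum, with a median of -0.08. In the list of 13 symbols for surface genes of stem and multipotent cells, 6 reached the minimum, 3 of them higher and 3 lower. The lower ones were *Adgrg1* (76.3 RPKM and 13.9 RPKM, -2.44), *Itga2b* (-1.51) and *Cd93* (67.3 RPKM and 32.9 RPKM, -1.03), and besides *Prom1* the higher ones were *Cd9* (0.19) and *Cd63* (0.03), the most abundant of them. The median was -0.50, and -0.097 without a filter. The symbol *Gpr56*, an older name of *Adgrg1*, had no row of its own.

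Other antigens of lineage and progenitor gates went both ways. Of 14 such genes, 10 reached the minimum, 5 higher and 5 lower, with a median log2 ratio of -0.06 that was -0.30 at a minimum mean of 5 RPKM. The markers of megakaryocyte and erythroid precursors in this list were lower. *Itga2b*, which encodes CD41 of megakaryocyte precursors, had 12.8 RPKM and 4.43 RPKM (-1.51). *Eng*, which encodes CD105 of erythroid precursors, had 8.83 RPKM and 4.12 RPKM (-1.08). In the study's panel, CD11b and CD106 mark a neutrophil precursor, and their genes *Itgam* and *Vcam1*, given below, were higher. *Ly6c2*, one of the genes for Ly6C, had 88.7 RPKM and 36.8 RPKM (-1.27), whereas its neighbour *Ly6c1* had 8.12 RPKM and 10.3 RPKM (0.35). *Siglecf*, an eosinophil antigen, had 11.3 RPKM and 9.12 RPKM (-0.30), and *Csf1r* is given above.

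Antigens of maturing granulocytes were higher in 4T1-bearing mice. *Itgam*, which encodes CD11b, had 10.6 RPKM and 19.9 RPKM (0.91), and *Ly6g*, an antigen of neutrophils, had 0.426 RPKM from 4 reads and 4.3 RPKM from 119 reads (3.06, interval 1.94 to 5.23). *Vcam1*, which encodes CD106, had 16.7 RPKM and 19 RPKM (0.18), and *Ptprc*, which encodes the pan-leukocyte antigen CD45 with its B220 form, 39.2 RPKM and 49.1 RPKM (0.32). The T and NK cell antigens of the list were at or near 0: *Cd3e*, a T cell antigen, had 0 and 0.0232 RPKM, and *Klrb1c*, an NK cell antigen, 0.187 and 0.405 RPKM. These antigens of T and NK cells thus left little trace in either library. Of 17 Ly6 family genes, *Ly6a* and *Ly6g* included, 4 reached the minimum. *Ly6e* was the most abundant, with 246 RPKM and 227 RPKM (-0.11), and 6 were listed at 0 in both libraries. The median of these 4 was 0.12 and turned negative under several of the alternatives.

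**Figure D4:**
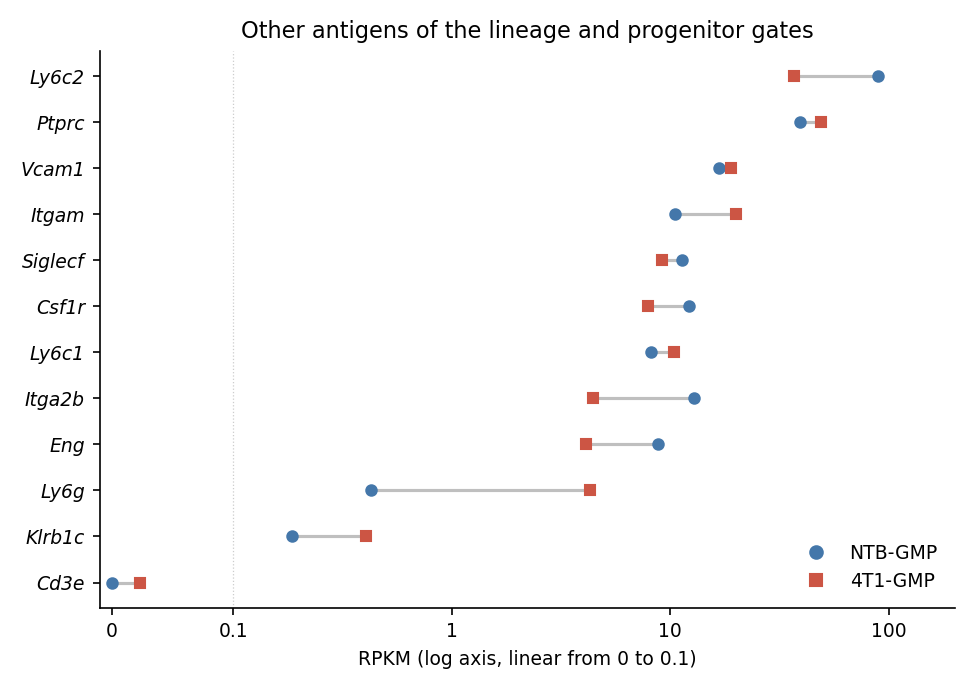
RPKM of further antigen genes of lineage and progenitor gates in NTB-GMP (circles) and 4T1-GMP (squares), ordered by their mean, on an axis that is logarithmic above 0.1 and linear below. *Itga2b*, *Eng* and *Ly6c2* lie to the left in 4T1-GMP, *Itgam* and *Ly6g* to the right, and *Klrb1c* and *Cd3e* stay below 1.

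Markers of other cell types also differed between the libraries. All 14 neutrophil genes listed were at least 2-fold higher in 4T1-bearing mice, with a median log2 ratio of 3.09 and a summed level of 514 RPKM in NTB controls and 4087 RPKM in 4T1-bearing mice. Of these, *Mmp8*, *Mmp9*, *Ly6g*, *Il1b* and *Cd101* were below 1 RPKM in NTB controls. They reached the minimum only through the 4T1 library, so that their being higher is partly fixed by the filter. Among the highest by ratio was *Il1b*, with 1 read in NTB controls and 509 reads in 4T1-bearing mice (log2 ratio 6.21, interval 4.95 to 12.7). *Cd101* was listed at 0 in NTB controls and had 2.42 RPKM in 4T1-bearing mice, at least 26.6-fold higher against 3 reads in the control library, and the median of the list is also 3.09 with that bound. *Mmp9* was also among them (4.52), and the lowest were *Camp* (1.33), *Ngp* (1.57) and *Cxcr2* (1.79), while *S100a9* was the most abundant. Of the 11 GMP and granule genes found, 9 were higher, with a median of 0.66 that was 0.32 after quantile normalization, led by *Ms4a3* (1.35), *Prtn3* (1.24) and *Ctsg* (1.11). *Mpo*, the most abundant of them, was at 5162 RPKM and 5625 RPKM (0.12), and *Hdc* (-0.60), *Cebpa* (-0.36) and *Mpo* were the lowest. The part that other cells in the gate had in the lower levels of the surface marker genes was not tested.

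Genes of the other branches were mostly lower in 4T1-bearing mice, the direction that *Flt3*, *Cd34* and *Kit* also had. Of the monocyte and dendritic genes, 10 of 11 tested were lower and 8 at least 2-fold (median -2.62, summed level 242 RPKM and 92.9 RPKM). *H2-Aa* (-3.52), *H2-Ab1* (-3.40) and *Ly86* (-3.18) were the lowest and *F13a1* (0.02), *Csf1r* (-0.62) and *Ccr2* (-0.73) the highest, *F13a1* being the most abundant on average. Of the stem and early progenitor genes, 6 of 8 were lower and 3 at least 2-fold (median -0.67, 136 RPKM and 67.7 RPKM). *Gata2* (-2.50), *Sox4* (-1.87) and *Meis1* (-1.83) were the lowest, *Cd69* (0.07), *Hoxa9* (0.06) and *Hoxa5* (-0.39) the highest, and *Sox4* the most abundant. All 6 eosinophil genes were lower, 5 of them at least 2-fold (median -1.71, 1455 RPKM and 490 RPKM), with *Ear2* (-3.19), *Il5ra* (-2.27) and *Prg3* (-1.84) at one end, *Siglecf* (-0.30), *Epx* (-1.44) and *Prg2* (-1.58) at the other, and *Prg2* the most abundant. *Il5ra* and the monocyte and dendritic genes *Ly86* and *Cx3cr1* were below 1 RPKM in 4T1-bearing mice. They reached the minimum only through the NTB library, so that their being lower is partly fixed by the filter.

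All 8 tested mast cell and basophil genes were lower, 5 at least 2-fold (median -1.48, 470 RPKM and 195 RPKM). Of these, *Cma1* reached the minimum only through the NTB library. *Gata2* is also counted among the stem and early progenitor genes, and *Il6st* is not particular to mast cells and basophils. *Gata2*, *Ms4a2* and *Cma1* (-1.86) were the lowest, *Fcer1a*, *Mcpt8* (-0.84) and *Il6st* (11.9 RPKM and 5.9 RPKM) the highest, and *Mcpt8* the most abundant, with *Tpsab1* at 0 in both libraries. Since mast cells also express *Kit*, these values stand beside that of *Kit*, and their part in it was not tested. Of the erythroid genes 4 of 5 were lower, 3 of them at least 2-fold, and only *Tfrc* (0.99), the most abundant, was higher, against *Klf1* (-2.42), *Gata1* (-2.26) and *Car2* (-1.71); their summed level was 62.5 RPKM and 80.2 RPKM, with *Hbb-bt* and *Hba-a1* at 0 in both libraries. *Klf1* and *Gata1* reached the minimum only through the library where they were high, so these counts are a description. Of the 10 megakaryocyte genes, *Itga2b*, *Itgb3* (-1.66) and *Gp9* (-1.60, from 13 and 11 reads) reached the minimum, the latter pair only through the NTB library, so that their being lower is partly fixed by the filter. Below the minimum, *Vwf* had 0.278 RPKM and 0.343 RPKM and *Pf4* 0.334 RPKM and 0.453 RPKM, the other way. The summed levels of the list were 19.5 RPKM and 6.65 RPKM.

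Most genes listed for lymphoid, epithelial and stromal cells were sparse. Among 10 B cell genes, *Cd79b* alone reached the minimum (-0.24), and the summed level was 17.1 RPKM and 13.5 RPKM. None of the 11 T, NK and innate lymphoid genes did, with 1.48 RPKM and 2.61 RPKM in sum. Of 10 epithelial and stromal genes, *Cdh1* (-2.26), *Pecam1* (-1.38) and *Krt18* (-0.52) reached it, with sums of 47.8 RPKM and 21.4 RPKM, while *Epcam*, *Krt14* and *Col1a1* were at 0 in both libraries. *Pecam1* made up most of these sums, with 29.5 RPKM and 11.3 RPKM. It is also expressed by hematopoietic cells, so the sums do not measure epithelial or stromal cells. *Krt8* had 0.0544 RPKM and 0.111 RPKM, from 1 and 6 reads. The median of the tested genes was -1.38, and -0.47 without a filter.

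The scaling of the libraries touched the size of these ratios more than their direction. *Rn45s* took up 17% of the NTB library size and 6.98% of the 4T1 library size. Leaving its reads out of these sizes, which are not plain read totals, shifts every log2 ratio by -0.16 before the pseudocount. The median of all tested genes was then -0.11. With that shift, *Fcgr3* (-1.06) and *Cd27* (-1.01) also came to at least 2-fold lower, which made 4 members. *Fcgr2b* was 0.29 there and stayed above 0 under each of the 5 settings tried, the lowest being 0.25 after quantile normalization. The pseudocount settings among these could not have taken *Fcgr2b* below 0. *Flt3* ranged from -2.54 to -2.02 over these settings, *Cd34* from -1.61 to -1.36 and *Kit* from -0.90 to -0.66. The order of the members by ratio, from *Flt3* over *Cd34*, *Fcgr3*, *Cd27*, *Kit* and *Cd48* to *Fcgr2b*, was the same under each. Leaving out *Rn45s* and centring on the median move all genes nearly alike, so they could hardly change this order. The counting intervals of *Fcgr3* and *Cd27* overlapped, as did those of *Cd27* and *Kit*, so their order is not resolved.

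**Figure D5:**
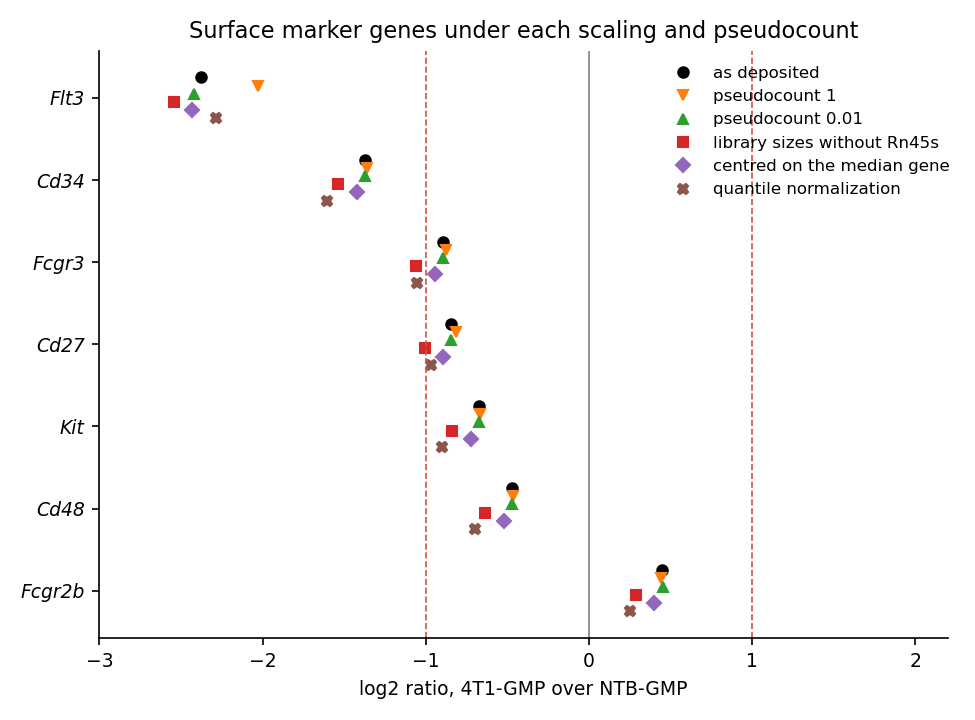
Log2 ratios of 4T1-GMP over NTB-GMP for the 7 members above the minimum, as deposited and under 5 other scalings or pseudocounts, with dashed lines at 2-fold. Each member keeps its side of 0 under all of them, which a change of pseudocount could not have altered. *Fcgr3* and *Cd27* cross the lower dashed line under some (down to -1.06 and -1.01).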

How the data were processed

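GMPs from NTB and 4T1-bearing mice were sequenced as 1 library each, and the authors deposited RPKM for 24421 gene symbols. Per the labels, the processing used CASAVA 1.8.2, cutadapt 1.2.1, TopHat2 2.0.13, Picard 1.97, HTSeq 0.6.1, edgeR 3.12.1 and build mm10, without their roles. The 10 members and all gene lists were chosen with earlier results of these data known. All members are named; of other lists, the 3 highest and 3 lowest log2 ratios among genes whose RPKM averaged 1 or more, with the most abundant gene, and gate antigens and ligands in full, except a few that are counted in their lists but not reported here.

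Whole reads were recovered from the full-precision RPKM within a relative tolerance of 2e-12 for 14833 of 14833 genes above 0. Only 2159 of the gene lengths this implied equalled a GENCODE M21 length, and for the others the reads may be off by a whole factor. The library sizes are not whole numbers, so they are not plain read totals. A gene at 0 was read as up to 3 reads. Ratios used log2(RPKM + 0.1), a scale that understates changes of low genes. No test was possible with 1 library per group. Intervals are 95% Clopper-Pearson (ratios) and Poisson (levels). Recovery was tested on simulated data. Computations used Python 3.11.15, numpy 2.4.6 and scipy 1.17.1.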

Additional observations from a re-analysis of the deposited data

How the results depend on the processing

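Each member ratio was recomputed under 5 alternatives and each count under 9, all listed with earlier results known. Of 35 member ratios, 23 stayed within the counting interval, 12 moved beyond it and 0 changed sign. A change of pseudocount cannot change a sign, so only the other settings could have done so. Members at least 2-fold lower numbered 2 as reported, 4 without *Rn45s* in the library sizes, 3 after quantile normalization, 5 at a fold of 1.5 and 1 at a fold of 4. Members at least 2-fold higher numbered 0, and 1 without a filter, which was *Ly6a* at 0 in NTB-GMP. All genes at least 2-fold higher numbered 337 as reported, 734 without a filter, 170 at a minimum mean of 5 RPKM, 1017 at a fold of 1.5 and 97 at a fold of 4. Those at least 2-fold lower numbered 511 as reported, 299 with a pseudocount of 1, 1246 without a filter, 181 at the minimum of 5 RPKM, 1209 at a fold of 1.5 and 125 at a fold of 4. A pseudocount of 1 shrinks the ratios of low genes, and the other settings test more or fewer genes or ask for another fold. Of 143 list medians, 68 stayed as reported, 70 moved, among them the ligands from -0.25 to -0.018 after quantile normalization, and 5 changed sign: the Ly6 family to -0.045 without *Rn45s*, -0.020 after quantile normalization, -0.11 without a filter and -0.11 at the minimum of 5 RPKM, and the CD27 partners and TNF receptors to -0.036 without *Rn45s*. The cause was not tested beyond the shift itself. No paired analysis was possible because neither group had a further library, and for the same reason no library could be left out. Depth in NTB-GMP limits *Ly6a*, *Slamf1* and *Il7r*.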
